A study of Mus musculus with 8 samples.

Results

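The genes described here are the CXC chemokine genes Cxcl2, Cxcl10, Cxcl14 and Cxcl16, which encode secreted or membrane-bound attractants of white blood cells. They were taken by gene name from the non-control spots of the arrays, which gave 4 genes on 5 probes (2 for Cxcl16, 1 for each of the others) of 41174 probes in all. RAW264.7 cells, a macrophage-like mouse line of BALB/c origin, were kept with Lactobacillus acidophilus MTCC-10307 or with Bacillus clausii MTCC-8326 at 100 bacteria per cell for 1, 2, 4 or 6 h, and untreated cells of the same time served as the controls. Each of the 8 two-colour arrays set treated RNA, labelled with Cy5, against untreated RNA, labelled with Cy3, and every RNA was a pool of 3 cultures, so there was 1 array for each bacterium and time and no repeat of any array. The values below are log2 ratios of treated over untreated signal unless a channel is named. Since the dyes were never exchanged, dye bias of a probe and a response common to all arrays cannot be told apart. Each bacterium had its own slide and each time its own place on a slide, so these pairs cannot be told apart either.

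CXC chemokines are small proteins named for a pair of cysteines with a single residue between them, and they act through G protein-coupled receptors on white blood cells. Cxcl2 binds the receptor Cxcr2 and draws neutrophils, and in macrophages it belongs to the genes that NF-kB switches on early after contact with microbes. Cxcl10 binds Cxcr3 on activated T cells and natural killer cells and is induced by interferons together with NF-kB, Cxcl14 is made without a stimulus in many epithelia, and Cxcl16 is anchored in the membrane, binds Cxcr6, takes up oxidised lipoprotein and is cut from the cell surface by the proteases Adam10 and Adam17.

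Between 39.6% and 51.5% of probes were well above background in the treated channel, against 42.0% to 47.4% in the untreated channel, and no spot was saturated. Of 10 macrophage markers 9 were detected in both channels of all 8 arrays, among them Adgre1, Cd68, Csf1r and Lyz2, and Itgam was detected in the treated channel of 5 and the untreated channel of 3. The epithelial markers Epcam, Krt18 and Cdh1 were never detected, while the T cell marker Cd3e was detected in each channel of 7 arrays. Summed over each list, macrophage markers had 67500 to 107000 units of treated and 59600 to 76900 of untreated intensity, and T cell markers 252 to 433 and 242 to 419. The part of these dim markers in the results was not tested. After dim probes were left out, 14806 genes were tested, and all 4 chemokine genes were among them, Cxcl16 with the brighter of its probes. In bulk RNA of this kind fewer cells expressing a gene and less RNA per cell cannot be told apart.

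The sequences before the start sites of Cxcl2, Cxcl10 and Cxcl14 are shown because the first of these genes gave the largest early ratios of the set and the other 2 did not, although the known regulators of Cxcl2 and Cxcl10 overlap. RefSeq's promoter table (assembly GRCm38.p6) matched 3 of the 4 genes, at chr5:90903649-90903898 (plus strand), chr5:92348890-92349139 (minus strand) and chr13:56296552-56296801 (minus strand), and each run below holds the 250 bases that end just before the start site, read 5′ to 3′ along the gene. Capitals mark matches, on either strand, to an NF-kB motif (GGG, any 3 bases, T, any base, CC), the ISRE of interferon-induced genes (TTTC, any 2 bases, TTTC), AP-1 (TGANTCA) or the TATA box (TATAAA).
Cxcl2: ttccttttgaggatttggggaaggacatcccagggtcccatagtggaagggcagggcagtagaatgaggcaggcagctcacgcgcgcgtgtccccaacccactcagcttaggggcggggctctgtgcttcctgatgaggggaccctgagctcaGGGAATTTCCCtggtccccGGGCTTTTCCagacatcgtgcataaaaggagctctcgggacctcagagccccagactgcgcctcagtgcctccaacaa
Cxcl10: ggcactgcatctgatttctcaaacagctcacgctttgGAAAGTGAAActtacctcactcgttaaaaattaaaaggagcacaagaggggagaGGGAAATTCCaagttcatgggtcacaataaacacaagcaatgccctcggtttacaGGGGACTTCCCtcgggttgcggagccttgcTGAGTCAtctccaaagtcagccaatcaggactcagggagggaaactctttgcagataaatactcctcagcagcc
Cxcl14: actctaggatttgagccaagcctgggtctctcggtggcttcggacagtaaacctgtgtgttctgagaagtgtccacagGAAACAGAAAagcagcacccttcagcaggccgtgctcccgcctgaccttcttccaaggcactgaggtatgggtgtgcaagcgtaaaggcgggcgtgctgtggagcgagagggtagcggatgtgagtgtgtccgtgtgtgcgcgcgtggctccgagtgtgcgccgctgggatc
The Cxcl2 window had 3 NF-kB matches, of which GGGAATTTCC at -97 to -88 overlaps its opposite-strand match at -96 to -87, and GGGCTTTTCC lies at -78 to -69. The Cxcl10 window held 4 NF-kB matches, at -159 to -150 and 3 overlapping ones between -104 and -94, with an ISRE match on the opposite strand at -213 to -204 and an AP-1 match at -74 to -68. The Cxcl14 window had a single match, ISRE on the opposite strand at -172 to -163, and none of the 3 windows had a TATAAA match. Among all 32851 windows of 250 bases that RefSeq lists, 14.9% held an NF-kB match, 2.98% an ISRE match, 6.75% an AP-1 match and 12.4% a TATA box match. A match is a description of letters, and factor binding was not measured.

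Cxcl2 was far higher in treated than in untreated cells during the first 2 h with both bacteria, and no longer so at 4 h. Its log2 ratios at 1, 2, 4 and 6 h were 2.06, 1.84, -0.06 and 0.69 with L. acidophilus, and with B. clausii they were 2.35, 1.03, -0.79 and -0.39. As folds, treated over untreated, these were 4.18, 3.58, 0.96 and 1.61 with L. acidophilus, and with B. clausii they were 5.10, 2.04, 0.58 and 0.762. Both bacteria thus had their highest Cxcl2 ratio at 1 h and their lowest at 4 h, and every ratio of 1 and 2 h lay above every ratio of 4 and 6 h.

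**Figure D1:**
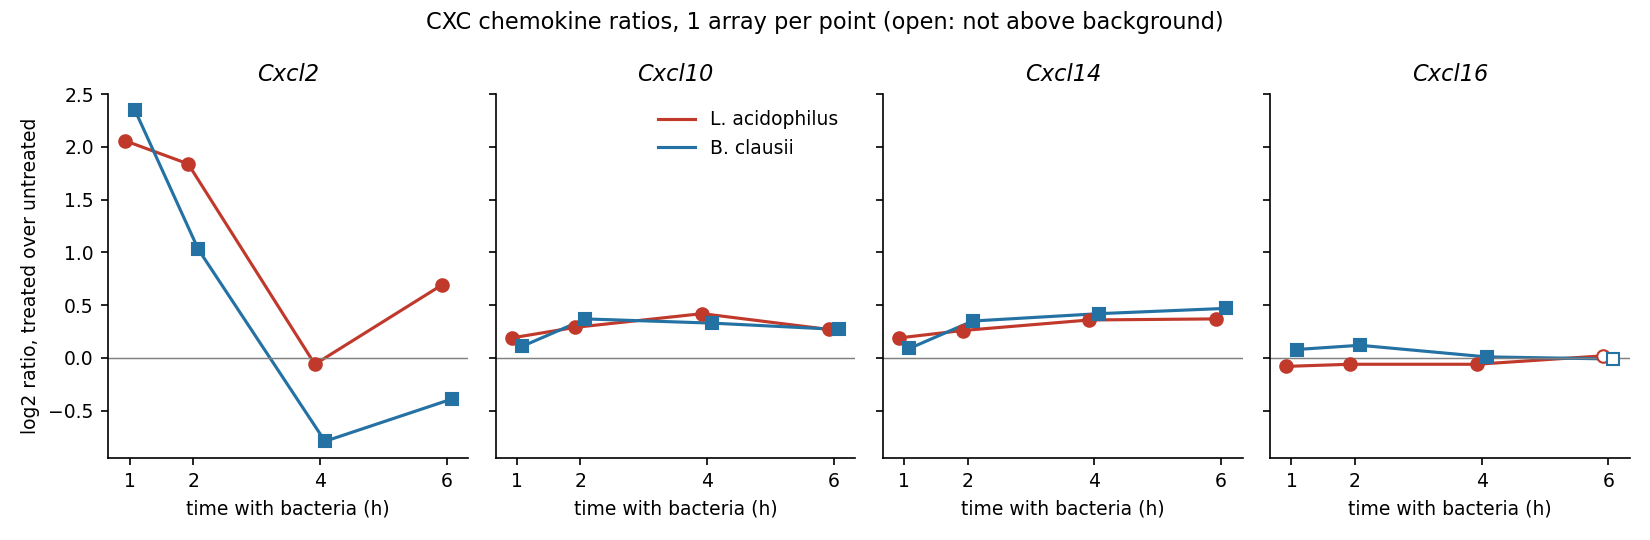
Log2 ratio of treated over untreated signal (vertical axis) against hours with bacteria (horizontal axis) for the 4 genes, 1 array per point, L. acidophilus as red circles and B. clausii as blue squares, shifted slightly sideways. Open points were not well above background in either channel. Cxcl2 spans -0.79 to 2.35, while the other genes stay between -0.08 and 0.47.

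Among the 14806 genes Cxcl2 had the highest ratio of all on the L. acidophilus arrays of 1 and 2 h and on the B. clausii array of 1 h, and rank 16 on the B. clausii array of 2 h. At 4 h it stood at percentile 34.5 with L. acidophilus and at percentile 0.52 with B. clausii, where only a small share of genes was lower, and at 6 h at percentile 99.1 with L. acidophilus and at percentile 8.98 with B. clausii. By a rule of at least 2-fold it passed on 4 arrays, those of 1 and 2 h, each time higher in treated cells. Genes at least 2-fold higher made up 0.176%, 0.054%, 0.0878% and 0.162% of those tested on the L. acidophilus arrays of 1, 2, 4 and 6 h, and 0.486%, 0.128%, 0.115% and 0.284% on the B. clausii arrays. With a 3-fold rule the B. clausii array of 2 h dropped out. None of the other 4 probes reached 2-fold on any array.

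Ordered by size, the Cxcl2 ratios ran from B. clausii 1 h through L. acidophilus 1 h, L. acidophilus 2 h, B. clausii 2 h, L. acidophilus 6 h, L. acidophilus 4 h and B. clausii 6 h to B. clausii 4 h. All 7 gaps between neighbours, 0.22 to 0.81, were wider than the median SD of replicate spots on those arrays, which ran from 0.0924 to 0.152 over the 8 arrays. That SD covers spot noise on an array and neither labelling nor cultures, so the order itself has no replicate check.

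The swing lay in the treated channel. Normalized treated Cxcl2 signal at 1, 2, 4 and 6 h was 10.13, 9.94, 8.09 and 8.78 log2 units with L. acidophilus, and with B. clausii it was 10.5, 9.26, 7.54 and 7.68, against untreated signals of 8.06, 8.09, 8.15 and 8.09 on the L. acidophilus arrays and 8.15, 8.23, 8.32 and 8.07 on the B. clausii arrays. In the scanner's own units, before normalization, treated spots measured 871, 928, 245 and 338 with L. acidophilus, and with B. clausii they were at 802, 448, 147 and 144. Untreated spots measured 292 to 415. Local backgrounds of these spots were 32.0 to 38.5 in the treated and 22.5 to 29.0 in the untreated channel, so all 16 signals were well above background.

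**Figure D2:**
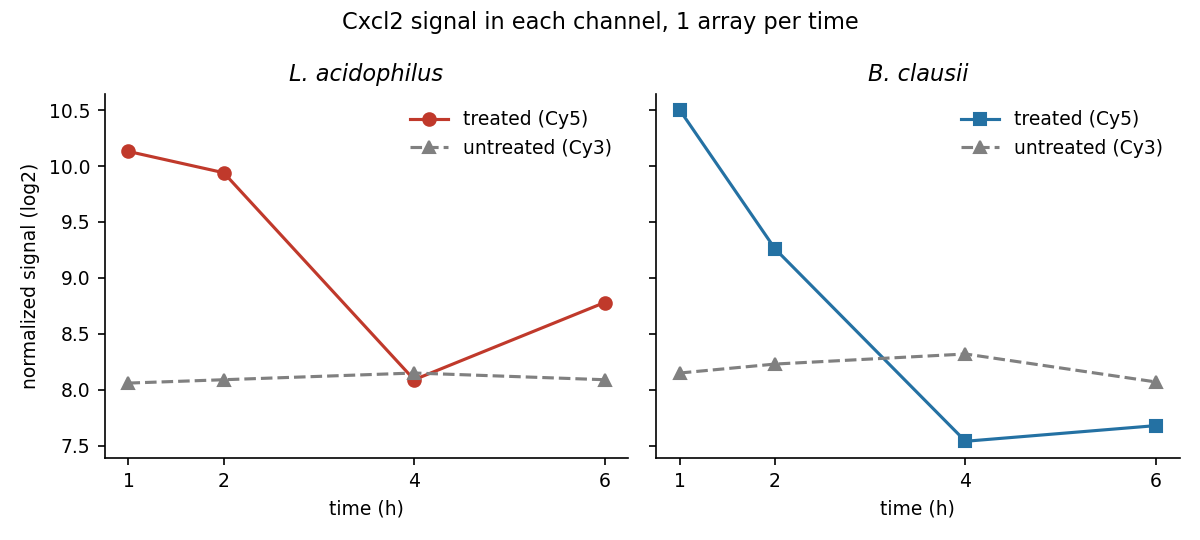
Normalized Cxcl2 signal (log2, vertical axis) against time in hours, with treated cells as coloured symbols and solid lines and untreated cells as grey triangles and dashed lines, L. acidophilus on the left and B. clausii on the right, 1 array per time. Treated signal runs from 10.5 down to 7.54, and untreated signal stays between 8.06 and 8.32.

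The phases were compared with limma over the 8 arrays, with the times as blocks of the 2 bacteria and Benjamini-Hochberg adjustment over all genes. From early (1 and 2 h) to late (4 and 6 h) the Cxcl2 ratio fell by 1.96 ± 0.18 on the log2 scale (SE, 95% confidence interval -2.37 to -1.54, adjusted p = 4.2e-04), and all 4 late arrays were below all 4 early ones. Cxcl2 was the 1 member of the 4 that changed, and 12.3% of all genes passed in that direction and 24.6% in either. A dye effect that is the same on every array drops out of this comparison. With median centring all genes split into 2905 higher and 382 lower, in place of 1827 and 1816. In single-channel fits treated signal fell by 1.93 ± 0.22 (adjusted p = 0.00665, with 12.1% of genes called and 6.17% in that direction), while untreated signal differed by 0.02 ± 0.06 (interval -0.12 to 0.16, adjusted p = 0.899, with 0.905% of genes called). The treated-channel call ended with the scanner software's processed signals (-2.33, adjusted p = 0.0563) and without both 1 h arrays (-1.58, adjusted p = 0.108), and the ratio call ended with local background as deposited (-1.27 ± 0.42, adjusted p = 0.0828).

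Taken by bacterium, in a fit that leaves the scatter between times of a phase in the error, the late minus early difference of Cxcl2 was -1.64 ± 0.36 for L. acidophilus (adjusted p = 0.131, limma) and -2.28 ± 0.36 for B. clausii (adjusted p = 0.0421), and 0.108% and 0.209% of all genes passed, 0.0675% as lower with B. clausii. The difference between those values, 0.64 ± 0.51 (interval -0.49 to 1.77, adjusted p = 1), did not pass, and 0% of genes did in limma, with 176 at an unadjusted p under 0.05. The B. clausii call ended in 15 of 25 other settings, which count the processed signals and their rounded copy in the series matrix separately. The number of all genes called in this comparison, 31 in the main setting, ran from 0 to 1132 over those 25. The loss of the call is therefore not particular to Cxcl2. Without the B. clausii array of 1 h the value was -1.62.

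Averaged over the 4 times, Cxcl2, Cxcl10 and Cxcl14 were higher in treated cells with each bacterium, and Cxcl16 did not pass. With L. acidophilus the mean ratios were 1.13 ± 0.13 for Cxcl2 (adjusted p = 4.19e-04), 0.29 ± 0.04 for Cxcl10 (0.00107), 0.29 ± 0.04 for Cxcl14 (0.00116) and -0.04 ± 0.04 for Cxcl16 (0.436, limma). With B. clausii they were 0.55 ± 0.13 for Cxcl2 (adjusted p = 0.00852), 0.27 ± 0.04 for Cxcl10 (0.00103), 0.33 ± 0.04 for Cxcl14 (4.23e-04) and 0.05 ± 0.04 for Cxcl16 (0.352, limma). Calls were common: 42.2% of all genes passed with L. acidophilus (23.7% higher, 18.5% lower) and 44.2% with B. clausii (23.1% higher, 21.1% lower), and the count of 3 of 4 has to be read against those shares. These p-values test a mean ratio of 0, and their error is how far the difference between the bacteria varied from time to time. That error leaves out the scatter between times that both bacteria shared, and the scatter between cultures. The labels do not say if a time's untreated RNA was shared by the bacteria. Loess sets the typical gene of each brightness to 0 (medians over genes of 0.02 and 0.01), and median centring instead moved the median of all genes by up to 0.46 and changed the split of called genes. It became 1343 higher and 4488 lower with L. acidophilus, in place of 3512 and 2734. For B. clausii it became 843 and 8662, in place of 3418 and 3124, and there Cxcl14 stood at -0.12 (adjusted p = 0.17). The mean of Cxcl2 averages ratios of opposite sign with B. clausii, and it was 0.26 without the 1 h array of B. clausii and 0.21 without both 1 h arrays. Its call ended with the processed signals (adjusted p = 0.0971), the series matrix (0.0972), an offset of 0 (0.0537), median centring (0.18, 0.0843) and local background as deposited (0.35, 0.442). With L. acidophilus the Cxcl2 call ended with local background as deposited (0.66, adjusted p = 0.15). Without the time term neither Cxcl2 mean passed (adjusted p = 0.120 for L. acidophilus, 0.440 for B. clausii, in limma).

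L. acidophilus minus B. clausii was 0.58 ± 0.18 for Cxcl2 (interval 0.17 to 1.00, unadjusted p = 0.0114, adjusted p = 0.129, limma), and none of the 4 genes passed, with 0.642% of all genes called. All genes split into 66 higher and 29 lower, and into 4869 and 83 with median centring. Cxcl2 stood higher with L. acidophilus at 2, 4 and 6 h and lower at 1 h. Without the L. acidophilus or the B. clausii array of 1 h, or without both, the estimate was 0.88 ± 0.08 and passed (adjusted p = 0.0352), and with median centring it was 0.80 ± 0.13 (adjusted p = 5.27e-04). The omissions of 1 h arrays are a single test, because a time left with 1 array adds nothing to the difference between bacteria. The other differences were 0.02 ± 0.06 for Cxcl10 (interval -0.11 to 0.15), -0.04 ± 0.06 for Cxcl14 (-0.17 to 0.10) and -0.10 ± 0.06 for Cxcl16 (-0.23 to 0.04).

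**Figure D3:**
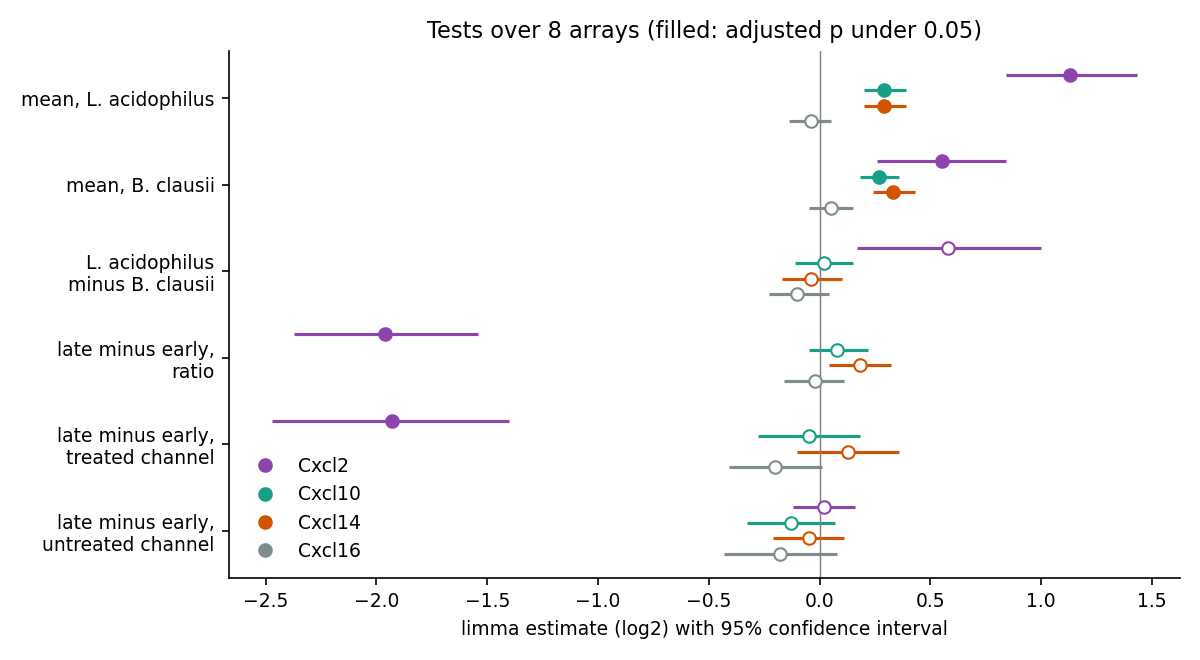
Limma estimates (log2, horizontal axis) with 95% confidence intervals for the 4 genes in 6 comparisons over 8 arrays, filled where the adjusted p was under 0.05. Cxcl2 has the widest swings, -1.96 from early to late in the ratio and -1.93 in treated signal against 0.02 in untreated signal, and Cxcl16 is open throughout.

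Cxcl10, the interferon-inducible ligand of Cxcr3, was slightly higher in treated cells on all 8 arrays. Its log2 ratios at 1, 2, 4 and 6 h were 0.19, 0.29, 0.42 and 0.27 with L. acidophilus, and with B. clausii they were 0.11, 0.37, 0.33 and 0.27. None of the 7 gaps between neighbouring values exceeded the replicate-spot SD, so neighbours in the order cannot be ranked for it. Its whole range, 0.31, was wider than the largest such SD, 0.152, which covers spot noise only. The gene was dim: treated spots measured 79.3 to 115 scanner units and untreated spots 111 to 146, over backgrounds of 29.0 to 41.0 and 23.0 to 30.0, and the ratio turned positive in normalization. With the scanner software's processed signals its ratios were 0.33 to 0.75, with local background as deposited 0.00 to 0.33, and with median centring -0.08 at 1 h with B. clausii. Late minus early was 0.08 ± 0.06 and did not pass (adjusted p = 0.338, limma).

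Cxcl14, the chemokine made by many resting tissues, gave log2 ratios over the 4 times of 0.19, 0.26, 0.36 and 0.37 with L. acidophilus and of 0.09, 0.35, 0.42 and 0.47 with B. clausii. With each bacterium the value of 1 h was the lowest and that of 6 h the highest. All 7 neighbouring gaps in the joint order were within the replicate-spot SD, so neighbours cannot be ranked. The whole range, 0.38, was wider than the largest such SD, 0.152, which covers spot noise only. Late minus early was 0.18 ± 0.06 (interval 0.04 to 0.32) and missed the threshold (adjusted p = 0.0579, limma), and it passed in 5 of 26 other settings. Treated spots measured 573 to 1180 and untreated spots 938 to 1410 scanner units, so normalization also set the sign of this ratio. The processed signals gave 0.21 to 0.39 over the arrays, and median centring gave -0.67 at 1 h with B. clausii.

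Cxcl16, the membrane-anchored ligand of Cxcr6, was close to background. Its brighter probe, in mm9 coordinates at chr11:70267780-70267839, had log2 ratios over the 4 times of -0.08, -0.06, -0.06 and 0.02 with L. acidophilus and of 0.08, 0.12, 0.01 and -0.01 with B. clausii. It was well above background in both channels on 6 arrays and in neither on the 6 h arrays. The other probe, whose 60 bases span 2742 bases of genome (chr11:70269521-70272262) and so cross an intron, was not well above background in either channel on 5 arrays. On the L. acidophilus array of 4 h and the B. clausii arrays of 2 and 4 h only its untreated signal was. The measured ratios of untreated over treated there were 1.1-fold, 1.02-fold and 1.18-fold. The treated signal did not clear background, so these ratios set no firm minimum, and they are open to dye bias. On the B. clausii array of 2 h the log2 ratio of -0.03 was smaller in size than that array's replicate-spot SD of 0.0972. For the brighter probe both intervals of the mean response, -0.14 to 0.05 with L. acidophilus and -0.05 to 0.15 with B. clausii, contain 0. With every probe tested on its own in limma, the other probe did not pass either. Its means were -0.10 ± 0.05 with L. acidophilus (adjusted p = 0.135) and -0.11 ± 0.05 with B. clausii (adjusted p = 0.0974). With B. clausii the estimates of both probes thus had opposite signs, the brighter one being at 0.05.

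The other probes lie, in mm9 coordinates per the file headers, at chr5:91334534-91334593 (Cxcl2, plus strand), chr5:92775781-92775840 (Cxcl10, minus strand) and chr13:56390078-56390137 (Cxcl14, minus strand), each a stretch of 60 bases. Apart from Cxcl16 every gene therefore rests on a single probe, and probe-specific behaviour cannot be separated from the gene.

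None of the 11 other CXC ligand genes listed passed the filter. Cxcl1, Cxcl3, Cxcl5, Cxcl9, Cxcl11, Cxcl12, Cxcl13, Cxcl17 and Ppbp were not well above background on any array, Cxcl15 was on 1, and Pf4, which was on 5, had no complete set of values. Cxcl1 and Cxcl3 are neutrophil attractants that share the receptor Cxcr2 with Cxcl2. Of 9 receptor genes 3 were measured, and Cxcr2 and Cxcr6 were never detected. Cxcr3, the Cxcl10 receptor, rose with L. acidophilus (0.18 ± 0.05, adjusted p = 0.0163, limma) and fell by 0.34 ± 0.07 from early to late (adjusted p = 0.00788). The L. acidophilus call of Cxcr3 was kept in 17 of 25 alternatives. Ackr1 and Cxcr5 rose with B. clausii (both 0.19 ± 0.05), which was kept in 19 and 14 of 24 alternatives. Over these alternatives the value of Ackr1 ran from 0.12 to 0.86 and that of Cxcr5 from 0.09 to 0.4. Of the 3 receptors 1 was thus called higher with L. acidophilus and 2 with B. clausii, beside 23.7% and 23.1% of all genes. From early to late 1 was called lower, beside 12.3% of all genes. The median of the 3 receptors was 0.03 with L. acidophilus and 0.19 with B. clausii, beside 0.02 and 0.01 over all genes.

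Among the CC chemokines, which attract monocytes and lymphocytes, and other chemokines outside the CXC family, 7 of 14 listed genes were measured, and from early to late 4 fell, 0 rose and 3 did not pass (median -0.46, beside 0.00 over all genes). Over all genes 12.3% were called lower and 12.3% higher in that comparison. The count of 4 ran from 2 to 5 over the alternatives. Ccl9, the smallest of these falls (-0.23 ± 0.07, adjusted p = 0.0468, limma), was kept in 8 of 25. Ccl4 gave 1.25, 0.88, -0.83 and -0.64 with L. acidophilus over the 4 times and 1.30, 1.03, -0.78 and -0.52 with B. clausii. Its ratio fell by 1.81 ± 0.06 (adjusted p = 2.61e-06, limma). Ccl3 fell by 1.42 ± 0.10 in ratio (adjusted p = 1.73e-04), but here untreated signal rose by 1.04 ± 0.13 (adjusted p = 0.0422) and treated signal did not pass (-0.38 ± 0.18, adjusted p = 0.226). The call in untreated signal was kept in 2 of 10 alternatives, with values of 0.77 to 1.31. The monocyte attractant Ccl2 fell by 0.80 ± 0.19 (adjusted p = 0.0169), kept in 17 of 25 alternatives, and its late ratios with L. acidophilus were 1.19 and 1.27 where those of Cxcl2 were -0.06 and 0.69. With B. clausii its late ratios were 0.49 and -0.11. Late minus early of Ccl2 was -0.34 ± 0.19 with L. acidophilus and -1.26 ± 0.19 with B. clausii, and the difference between them did not pass. On average over times 5 of the 7 rose and 1 fell with L. acidophilus, and 4 rose and 0 fell with B. clausii, beside 23.7% and 23.1% of all genes called higher. With median centring 2 rose with each bacterium, and Ccl4 with B. clausii, at 0.26 otherwise, was at -0.19.

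**Figure D4:**
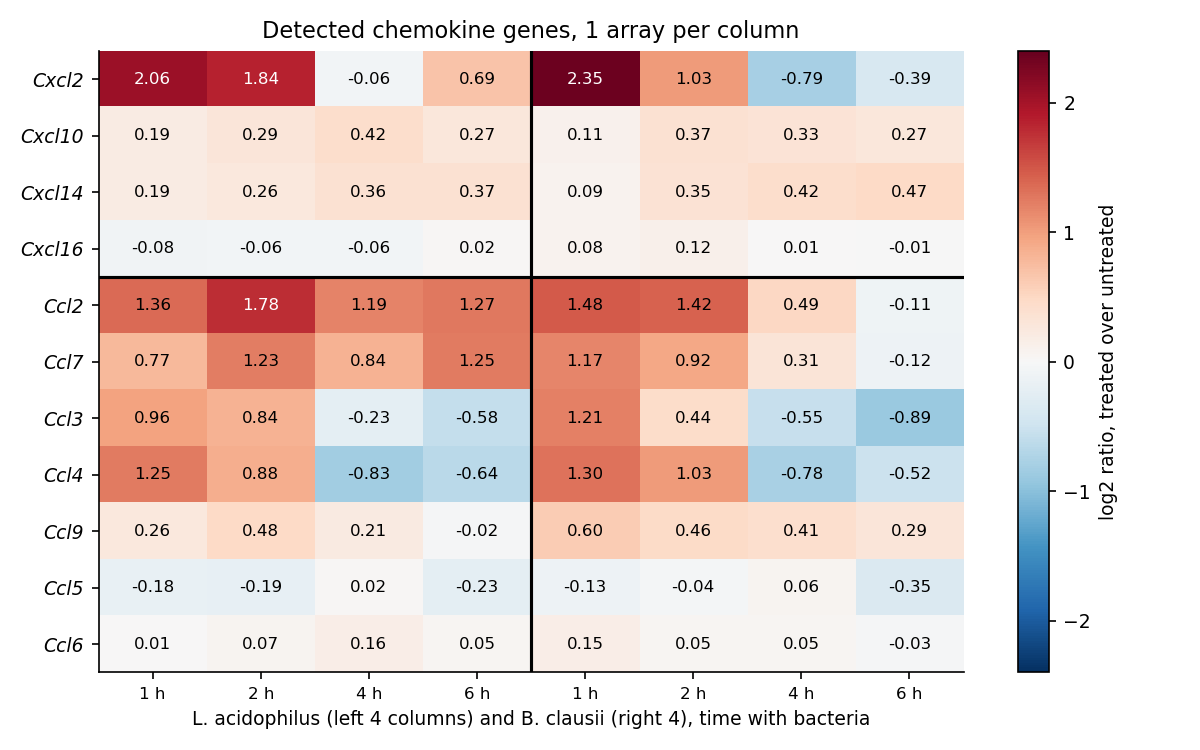
Log2 ratios of treated over untreated signal for the 4 CXC genes (top) and 7 measured CC chemokine genes (bottom), with L. acidophilus arrays in the left and B. clausii arrays in the right 4 columns, 1 array per column, red for higher and blue for lower in treated cells. At 1 and 2 h Cxcl2 is at 1.03 or more and Ccl4 at 0.88 or more, and at 4 and 6 h they are at most 0.69 and -0.52.

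Genes of the NF-kB pathway, which drives Cxcl2, had smaller estimates than Cxcl2. Of 15 listed, 12 were measured, and from early to late 1 rose, 4 fell and 7 did not pass, beside 12.3% of all genes called higher and 12.3% lower. The 4 falls became 1 with median centring and 0 with local background as deposited. They were the subunit gene Nfkb1 (-0.37 ± 0.08, adjusted p = 0.00912, limma) and the feedback genes Nfkbiz (-0.50 ± 0.06, adjusted p = 8.13e-04), Nfkbia (-0.43 ± 0.09, adjusted p = 0.0120) and Tnfaip3 (-0.23 ± 0.06, adjusted p = 0.0298, 0.03 without both 1 h arrays). Tnf rose by 0.44 ± 0.08, a value that ran from 0.07 to 0.80 over 25 alternatives and was called in 21. Its ratios were below 0 only at 2 h, at -0.25 (L. acidophilus) and -0.26 (B. clausii). At 1 h they were already 0.31 and 0.64, beside late Tnf ratios of 0.38 to 0.74. Averaged over times 5 rose, 1 fell and 6 did not pass with L. acidophilus (median 0.12), and 6 rose, 1 fell and 5 did not with B. clausii (median 0.15). Over all genes 42.2% and 44.2% were called. The count that rose with L. acidophilus was 1 with median centring and 0 with local background as deposited. With B. clausii it was 0 and 2, where median centring put Icam1, Nfkb1, Nfkb2, Nfkbiz and Tnf below 0 (-0.24, -0.03, -0.20, -0.07 and -0.02) and the processed signals put Nfkbie, the gene that fell, at 0.04. Il1b and Il6 were not detected on any array.

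Interferon pathway genes, among them genes that respond with Cxcl10 to interferon, showed no shared direction. Of 18 listed, 11 were measured, and with L. acidophilus 2 rose, 2 fell and 7 did not pass, with B. clausii 3, 2 and 6, and the median was 0.05 with both, beside 42.2% and 44.2% called over all genes. With median centring 0 rose with either bacterium. Oasl1 rose with L. acidophilus (0.33 ± 0.05, adjusted p = 0.00119, limma) and with B. clausii (0.53 ± 0.05, adjusted p = 8.47e-05). Isg15 fell with both (-0.30 ± 0.05 and -0.26 ± 0.05), as did Irf3 (-0.23 and -0.24), and Irf1 and Irf9, which rose with B. clausii at 0.22 and 0.13, stood at -0.21 and -0.14 with median centring. Ifnb1, Mx1, Cmpk2 and Ifi44 were not detected on any array.

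Of 4 genes that shed Cxcl16 or govern its shedding, 3 were measured. Rhbdf2, which brings Adam17 to the cell surface, rose with L. acidophilus (0.34 ± 0.04, adjusted p = 6.99e-04, limma) and B. clausii (0.49 ± 0.04, adjusted p = 7.5e-05) and fell by 0.32 ± 0.06 from early to late (adjusted p = 0.00720). Adam17 fell by 0.38 ± 0.06 from early to late (adjusted p = 0.00281), and Adam10 did not pass in either mean (0.00 ± 0.08 in both). With median centring none of the Rhbdf2 and Adam17 calls named here remained.

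The genes whose 8 ratios ran most like those of each chemokine were sought among 3195 named genes with an SD of at least 0.2 over the arrays. For Cxcl2 they were Bptf, Maff, Trib1, Calcrl and Strn3, with Pearson's r of 0.955 to 0.965 over 8 arrays, and 68 genes reached 0.9. Their swings were smaller, such as -0.62 to 1.24 for Trib1 beside -0.79 to 2.35 for Cxcl2. For Cxcl10 they were Slc30a1, Atrx, Rgs2, Traf5 and Rapgef2 (0.877 to 0.959, 3 genes at 0.9 or more), for Cxcl14 Cdc42, St13, Parp1, Rpl10a and Tuft1 (0.975 to 0.988, 170 genes) and for Cxcl16 Txnip, Tmem62, Rhob, E130119H09Rik and Kcnip1 (0.723 to 0.821, 0 genes). Cxcl10, Cxcl14 and Cxcl16 themselves had SDs of 0.10, 0.13 and 0.07 over the arrays, under the 0.2 asked of the compared genes. No gap between neighbouring ratios of these chemokines exceeded the replicate-spot SD, so the part of spot noise in their correlations is unknown. The correlations describe 8 arrays that share slides, dyes and possibly untreated pools. They were picked as the best of 3195 and carry no test.

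The ratios of Cxcl2 were recomputed under 7 other ways of turning spots into ratios. The scanner software's processed signals gave early ratios of 2.31 and 2.03 with L. acidophilus, and with B. clausii they were 2.69 and 1.19. The B. clausii ratio of 4 h was -1.14 with them. Median centring brought the B. clausii ratios of 1 and 2 h to 1.64 and 0.64. The local background as deposited, with a few extreme values left in, gave 0.22 at 1 h with L. acidophilus and 0.26 at 2 h with B. clausii. At 4 h Cxcl2 stayed below 0 in all of them with both bacteria.

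**Figure D5:**
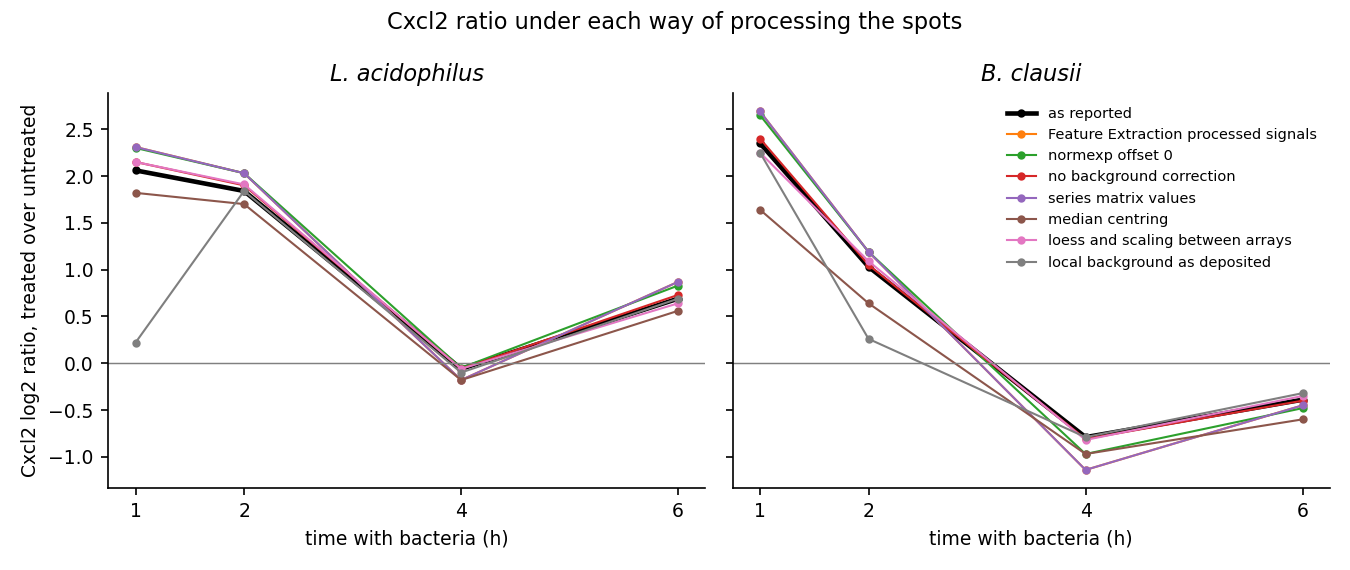
Cxcl2 log2 ratio of treated over untreated signal (vertical axis) against hours with bacteria under the processing reported here (thick black) and 7 others (thin colours), L. acidophilus on the left and B. clausii on the right. At 1 h with B. clausii they span 1.64 (median centring) to 2.69 (processed signals), and the deposited local background gives 0.22 at 1 h with L. acidophilus and 0.26 at 2 h with B. clausii.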

How the data were processed

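RNA of RAW264.7 cells was hybridised to 8 two-colour Agilent arrays. The intensity of each spot, deposited as a mean with its local background median and as a processed signal, came per the file headers from Feature Extraction 10.7.3.1 (the submitters' processing notes give 10.5.1.1). Per the file headers, log10 ratios of red over green processed signal were deposited with them, and the series matrix holds them rounded (differences up to 0.00499). The other deposited columns used here were flags and probe annotation, such as gene names, accessions and genome positions.

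Here, local backgrounds above 3 times the array median that the software itself flagged were set to that median (235 spots, left out). Background was corrected by normexp (offset 50) and ratios by loess within arrays in limma 3.58.1 (statmod 1.5.0, R 4.3.3). Between 0.473% and 0.717% of spots per array carried an outlier flag and were dropped, and probes named through GRCm38.p6 by accession (27668 and 93) or symbol (5991), with 7422 left as in the file. A probe stayed if either channel cleared background on 2 or more arrays (21273 did), and the brightest stood for its gene. The log2 values, single channels after Aquantile, were fitted by lmFit and eBayes: bacterium and time (3 residual degrees of freedom, prior 5.81) or bacterium by phase (4, prior 6.40). Values after ± are standard errors. P-values from limma were Benjamini-Hochberg adjusted over 14806 genes, and a change was called under 0.05. The scripts were tested on simulated data. No score or set test was used. Alternatives were the other signals, offsets, normalizations, filters, probe rules, priors and thresholds, and leaving out arrays or times. Local background as deposited, and the alternatives for gene lists, were added after seeing the data.

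The members and lists were chosen with earlier results of these data known. Named genes are the members, measured genes of the lists, and for each member the 5 genes with the highest Pearson correlation over the arrays. The number of arrays limits the precision, and p-values do not hold the spread between cultures, which were pooled.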

Additional observations from a re-analysis of the deposited data

Results flagged for a closer look

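The response of Cxcl2 differed between phases in the limma test of the difference itself, with a late minus early value of -1.96 ± 0.18 over both bacteria (adjusted p = 4.2e-04) and -2.28 ± 0.36 with B. clausii (adjusted p = 0.0421). The same comparison in treated signal alone gave -1.93 ± 0.22 (adjusted p = 0.00665). In untreated signal it was 0.02 ± 0.06, and in the ratio of every array left out in turn it was -2.25 to -1.67. Position on the slide coincides with the time and cannot be told apart from it. With 1 array per bacterium and time no sample could be compared with others of its own group.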

How the results depend on the processing

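In limma, 3 members were called with L. acidophilus in the main setting and 2 or 3 in the 26 alternatives. With B. clausii the count of 3 dropped to 0 with median centring, where Cxcl14 stood at -0.12, and to 1 with local background as deposited. The call of Cxcl2 with B. clausii also ended with the processed signals (adjusted p = 0.0971), the series matrix (0.0972), an offset of 0 (0.0537) and no time term (0.44), so it ended in 6 of 26 alternatives. For L. acidophilus minus B. clausii 0 were called, and 1 (Cxcl2) with median centring and without both 1 h arrays, with 0 to 1 when 1 array was left out. Leaving out either array of 1 h is the same test here as leaving out both. Late minus early had 1, and 2 (Cxcl2 and Cxcl14) with median centring, the filter on both channels, the mean over probes or adjusted p under 0.1, 0 with local background as deposited, and 1 to 2 when 1 array was left out. Late minus early with B. clausii had 1, and 0 with the processed signals, the series matrix, an offset of 0, no background correction, median centring, local background as deposited, the mean over probes or a trended prior, 0 without both arrays of 1, 2 or 6 h, and 0 to 1 when 1 array was left out. In treated signal 1 became 0 with the processed signals and without both 1 h arrays. The other member counts, late minus early with L. acidophilus, the interaction and untreated signal, were 0 in every setting. Probe values past 2-fold numbered 4, and 8 with the processed signals or the series matrix, and 2 with local background as deposited. The causes were not tested. Over the alternatives, counts of all genes called ran from 2346 to 8727 for the L. acidophilus mean (main 6246), 3445 to 9505 for B. clausii (6542), 0 to 4952 for their difference (95), 1143 to 4907 for late minus early (3643), 0 to 265 and 0 to 1132 for late minus early with each bacterium (16 and 31), 0 to 16 for the interaction (0), and 0 to 2974 and 0 to 452 in treated and untreated signal (1796 and 134). Cxcl10 and both Cxcl16 probes lay near background, which limits what their ratios can show.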
